A study of Mus musculus with 72 samples.

Results

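The endothelial and angiogenesis genes followed across the arrays were Esm1, Apln, Angpt2, Vegfa, Angptl4, Kdr, Flt1, Tek, Pecam1 and Cdh5. They were chosen by symbol, and their probes were found through the annotation of the array platform. These 10 genes, of 16593 genes on the array, had 15 probes among 25697. A probe was tested when its signal was above background (detection p under 0.05) on at least 3 arrays, which 9 of the 10 genes and 12265 genes in all met. Apln was above background on 0 of 72 arrays and was not tested. All levels are log2 signals after background correction and quantile normalization, and each gene was read from its brightest tested probe.

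The arrays measured whole-tissue RNA of C57BL/6J mice with adipose deletions of the lipases ATGL (gene Pnpla2) and HSL (gene Lipe). All mice, controls included, carried a Cre transgene driven by Fabp4 regulatory sequence, a promoter used for its activity in fat. ATGLAKO mice lacked ATGL, HSLAKO mice were homozygous for a floxed Lipe allele whose exon 1 is removed by Cre, and DAKO mice, bred from both lines, lacked both lipases. Interscapular brown adipose tissue (BAT) was labelled 3, 7 or 12 months and perigonadal white adipose tissue (WAT) 3 months, and 5 arrays of DAKO BAT labelled 14 months are called liposarcoma here, which made 17 groups of 3 to 5 arrays. Because the arrays read bulk tissue, fewer cells of a type and less RNA per cell cannot be told apart.

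New vessels grow by sprouting. VEGF-A, made by cells short of oxygen, binds Kdr on endothelial cells, while Flt1 binds the same ligand tightly and limits its reach. The cell at the front of a sprout, the tip cell, makes the secreted proteoglycan endocan (Esm1), the peptide apelin (Apln) and angiopoietin-2 (Angpt2), a ligand that loosens vessels by opposing signalling through the receptor Tek. The study also cites raised Esm1 in human liposarcoma cell lines, and bulk arrays do not show which cells made it. Pecam1 and Cdh5 hold endothelial cells together at their junctions and mark endothelium in resting as well as growing vessels. Angptl4, an inhibitor of lipoprotein lipase, is made mainly by adipocytes in fat and is known as a target of fasting signals and of hypoxia.

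The promoters of Esm1, Tek and Flt1 are shown because Esm1 on the one side and Tek and Flt1 on the other stood at opposite ends on the arrays described last. Of the 10 genes, 6 (Esm1, Apln, Vegfa, Kdr, Flt1 and Tek) had a promoter in the RefSeq table of build GRCm38.p6, which covers 250 bases before and 50 bases after a listed start. That start need not be the outer end of the gene. Capitals mark the core GGAA that ETS factors bind, read on either strand (GGAA or TTCC), and the core ACGTG or GCGTG of the hypoxia response element, also on either strand (CACGT or CACGC). The Esm1 promoter lies at chr13:113209409-113209708 on the plus strand, that of Tek at chr4:94739039-94739338 on the plus strand, and that of Flt1 at chr5:147725962-147726261 on the minus strand. The annotated Tek gene begins at 94739086, inside its window, and the Flt1 gene reaches to 147726438, beyond its window. For both, the listed start thus lies inside the annotated gene.
Esm1 promoter: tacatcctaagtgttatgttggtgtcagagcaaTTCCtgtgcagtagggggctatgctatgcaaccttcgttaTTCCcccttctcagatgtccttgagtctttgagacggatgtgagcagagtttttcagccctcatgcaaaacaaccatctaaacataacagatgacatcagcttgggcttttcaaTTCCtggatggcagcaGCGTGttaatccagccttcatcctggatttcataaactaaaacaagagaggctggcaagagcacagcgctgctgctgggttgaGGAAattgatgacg
Tek promoter: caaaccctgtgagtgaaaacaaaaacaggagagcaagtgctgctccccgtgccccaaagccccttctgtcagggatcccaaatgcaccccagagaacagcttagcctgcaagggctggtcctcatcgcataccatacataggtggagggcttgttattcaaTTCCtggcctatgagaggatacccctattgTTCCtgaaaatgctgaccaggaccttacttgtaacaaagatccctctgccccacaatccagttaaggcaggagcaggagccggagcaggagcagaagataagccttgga
Flt1 promoter: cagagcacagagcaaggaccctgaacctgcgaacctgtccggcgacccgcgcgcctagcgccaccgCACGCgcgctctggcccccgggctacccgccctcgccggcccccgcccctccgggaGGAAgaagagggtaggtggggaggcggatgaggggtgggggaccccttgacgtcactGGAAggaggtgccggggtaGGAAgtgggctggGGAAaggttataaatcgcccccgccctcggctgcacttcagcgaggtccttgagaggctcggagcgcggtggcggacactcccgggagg

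The ETS core occurred 4 times in the Esm1 sequence, 2 times in that of Tek and 4 times in that of Flt1. At least 1 such core was present in 96% of all 32851 promoters in the table, so its presence separates no gene. The hypoxia response core occurred 1 time each in Esm1 and Flt1 and 0 times in Tek. It was present in 43.8% of all promoters. The Esm1 sequence was the poorest of these 3 in G and C (46.3%, against 52% in Tek and 70.7% in Flt1). A match to these letters describes the sequence and is no evidence of a bound factor.

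Several arrays went against their labels. Ucp1, the uncoupling protein that defines brown adipocytes, was above 8 on 34 of 56 arrays labelled BAT and on 10 of 16 labelled WAT. All 8 control BAT arrays at 7 and 12 months had Ucp1 between 4.33 and 8.25, the highest on replicate 3 at 7 months. The arrays classed as high in Ucp1 read 11.35 to 13.89. Those 8 control arrays also had signal from genes of the mesothelium, which lines the body cavity. In all, 16 arrays had such signal (mean of 10 mesothelial genes from 6.15 to 7.82). Pnpla2 ranged from 8.68 to 14.14 on the arrays labelled ATGLAKO or DAKO and from 7.21 to 14.19 on the others. Lipe ranged from 4.48 to 9.44 on the arrays labelled HSLAKO or DAKO and from 5.34 to 10.37 on the others, and neither probe is known here to lie in the deleted part. The groups were kept as labelled, so every direction given below is that between labelled groups. In particular, the 7 and 12 month comparisons against control BAT set arrays without mesothelial signal, for the most part, against control arrays that all had it, and tissue source and genotype cannot be told apart there.

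Esm1 was near background in most groups and very high on 5 arrays. In control BAT at 3 months it was 4.37, 4.32, 4.36, 4.38 and 4.61, not well above background on any of the 5 arrays. In control BAT at 7 months it was 6.78, 6.11, 5.45 and 5.72, and at 12 months 6.47, 6.66, 5.17 and 5.63. The controls of 7 and 12 months thus lay above those of 3 months without overlap, and they are the arrays with mesothelial signal. In DAKO BAT Esm1 was 5.42, 4.63, 4.60, 5.23 and 4.41 at 3 months. At 7 months the DAKO arrays read 5.25, 4.90, 10.26 and 11.59, and at 12 months 10.72, 5.09, 4.53 and 6.38. In each of these older DAKO groups the arrays fell into a low and a high class with a wide gap between them. HSLAKO BAT showed the same split at 12 months (12.09, 11.44, 4.39 and 6.20), but at 7 months its highest array stood at 7.56 (7.56, 6.00, 4.42 and 4.33). Esm1 in ATGLAKO BAT stayed between 4.32 and 6.25 on all 13 arrays of the 3 ages.

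**Figure D1:**
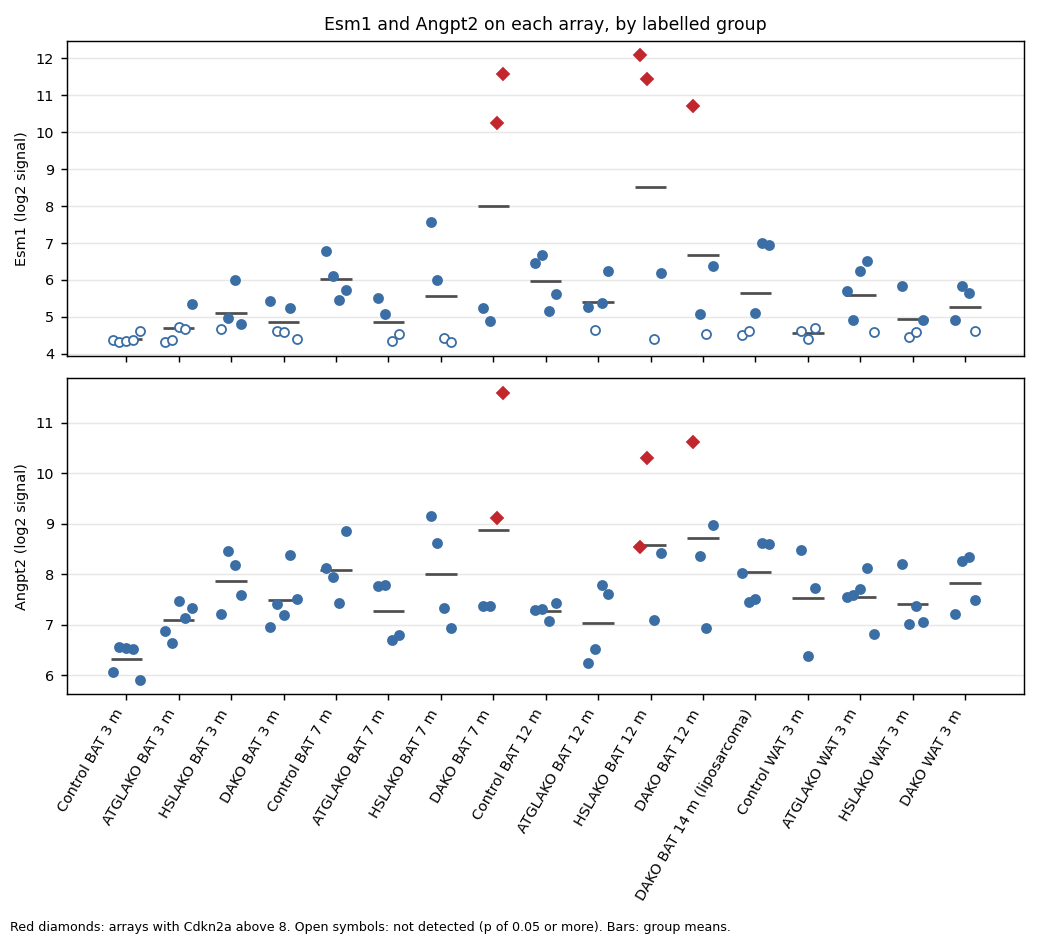
Log2 signal of Esm1 (top) and Angpt2 (bottom) on each of the 72 arrays, by labelled group, with bars at group means, red diamonds for the 5 arrays with Cdkn2a above 8 and open symbols for arrays where the gene was not detected. Esm1 lay between 10.26 and 12.09 on the 5 diamonds and at 7.56 or below on all other arrays.

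The liposarcoma arrays did not belong to the high class. Their Esm1 levels were 4.51, 4.63, 5.12, 6.99 and 6.94. The first 3 of these arrays had Ucp1 levels of 13.5 to 13.6, within the range of the arrays classed as high in Ucp1, and the other 2 had 6.2 and 6.8. Lipe read 9.36, 9.18 and 9.44 on the first 3 and 5.06 and 5.19 on the other 2. Its median on the arrays labelled control or ATGLAKO was 9.46. Pnpla2 read 10.61, 10.60 and 10.54 on the first 3 and 10.06 and 11.24 on the other 2. The median of Pnpla2 on the arrays labelled control or HSLAKO was 12.56. Against DAKO BAT at 12 months Esm1 differed by -1.04 (SE 1.00, adjusted p = 0.869), with overlapping arrays. Without the single DAKO array at 12 months that was high (replicate 1) the difference was 0.30, and without the 3 liposarcoma arrays with high Ucp1 it was 0.29. The direction therefore rested on which arrays were included.

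In WAT at 3 months Esm1 was lowest in the controls (4.61, 4.40 and 4.70, not well above background on any array). It was 5.71, 4.91, 6.23, 6.52 and 4.60 in ATGLAKO, 5.84, 4.47, 4.59 and 4.92 in HSLAKO and 4.92, 5.83, 5.65 and 4.62 in DAKO WAT. All 3 knockout groups overlapped the controls. Set against the background limit of the control arrays, mean Esm1 stood 1.77-fold higher in ATGLAKO WAT (adjusted p = 1), 1.4-fold higher in DAKO WAT (adjusted p = 0.94) and 1.13-fold higher in HSLAKO WAT (adjusted p = 1). None of these differences passed the test. The folds compare the knockout group's mean with the dimmest signal above background on each control array. Knockout arrays not above background entered at their measured signal, so the folds are not strict minima. Mesothelial signal was present on 4 of the 5 ATGLAKO arrays and 1 of the 3 control arrays, all 10 mesothelial genes measured were higher in ATGLAKO WAT, and the 1 ATGLAKO array without that signal read 4.60 for Esm1. The part of this signal in the difference was not tested.

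Ordered by group mean, Esm1 was highest in HSLAKO BAT at 12 months (8.53 ± 3.82, SD, n = 4), then in DAKO BAT at 7 months (8.00 ± 3.42, SD, n = 4) and at 12 months (6.68 ± 2.80, SD, n = 4). Control BAT at 3 months was the lowest (4.41 ± 0.12, SD, n = 5). The arrays of every group overlapped those of the next group in this order, for Esm1 as for each of the other 8 genes tested. The order of neighbouring groups is therefore not resolved for any of them.

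No difference of Esm1 passed both thresholds for a call, an adjusted p below 0.01 together with a change of more than 1.5 log2 units, in limma's test of all groups together. The difference from control BAT was 0.45 (SE 0.94, adjusted p = 0.835) for DAKO at 3 months, 1.98 (SE 1.06, adjusted p = 0.268) at 7 months and 0.70 (SE 1.06, adjusted p = 0.705) at 12 months. For HSLAKO at 12 months it was 2.55 (SE 1.06, adjusted p = 0.0865), which became 4.20 (adjusted p = 1.21e-05) with array weights and 3.93 (adjusted p = 0.00443) without HSLAKO replicate 3, both past the thresholds. Without the 5 high arrays these differences turned to -0.94 in DAKO at 7 months, -0.65 in DAKO at 12 months and -0.69 in HSLAKO at 12 months. HSLAKO BAT at 3 months (4.68, 4.96, 5.99 and 4.80) did not overlap its controls, but all control arrays were at background. The HSLAKO mean stood 1.15-fold above the background limit of those arrays, and the difference did not pass the test (adjusted p = 0.702).

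Angpt2, the other tip-cell ligand that could be read, was above background on all 72 arrays and lowest in control BAT at 3 months. Those controls read 6.07, 6.56, 6.54, 6.52 and 5.91. DAKO BAT at 3 months read 6.96, 7.40, 7.19, 8.37 and 7.51 and HSLAKO BAT 7.21, 8.45, 8.18 and 7.59. Neither group overlapped the controls, with differences of 1.17 (SE 0.53, adjusted p = 0.181) and 1.54 (SE 0.57, adjusted p = 0.0674), which did not pass the test of all groups together. That error pools all groups, and the SD of Angpt2 was 1.99 in DAKO BAT at 7 months against 0.31 in these controls. When the fit held only both groups compared, the HSLAKO difference passed both thresholds. Macrophage genes moved in the same comparisons (11 of 11 measured were higher in DAKO, 4 of them called, where 0.685% of all genes were called). Their part in the Angpt2 difference was not tested. At 7 months DAKO BAT read 7.38, 7.38, 9.12 and 11.59 against 8.12, 7.94, 7.44 and 8.85 in controls. At 12 months it read 10.62, 8.37, 6.94 and 8.98 against 7.30, 7.32, 7.07 and 7.44. The differences were 0.78 (adjusted p = 0.478) and 1.45 (adjusted p = 0.0891), and without the arrays high in Esm1 they were -0.71 and 0.81. A dimmer Angpt2 probe, above background on 3 arrays only, differed by 0.25 at 7 months and 0.08 at 12 months.

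Apln read 4.18 to 4.58 over all arrays, which is background. Its level can be given only as not detectable on these arrays, and no comparison was made.

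Of the growth signals outside the tip cell, Vegfa varied widely within groups and passed no test. It was 10.57, 10.31, 10.47, 10.26 and 10.35 in control BAT at 3 months and 10.10, 9.77, 10.05, 8.90 and 9.77 in DAKO. The groups did not overlap, but the difference of -0.68 (SE 0.59, adjusted p = 0.538), whose error comes from the spread over all groups, did not pass the test. At 7 months the DAKO arrays stood at 10.06, 10.25, 7.83 and 10.36 against 9.17, 8.18, 8.89 and 8.25 in controls (difference 1.00, SE 0.66, adjusted p = 0.395). At 12 months they stood at 10.14, 6.71, 9.97 and 8.99 against 9.46, 9.33, 11.06 and 9.35 (difference -0.85, SE 0.66, adjusted p = 0.407). A second Vegfa probe followed the first over the 72 arrays (r = 0.939) and gave the same sign in these 3 comparisons (-0.83, 0.67 and -0.95).

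Under the main settings Angptl4 was the only member called in any comparison. In DAKO BAT at 7 months it was 11.37, 11.45, 9.90 and 11.00, below the controls on every array (11.59, 12.73, 13.04 and 12.87). The difference was -1.63 (SE 0.36, adjusted p = 0.00484). The call was lost when any 1 of control replicates 2 to 4 or of DAKO replicates 3 and 4 was left out (adjusted p from 0.0117 to 0.0459), and without both DAKO arrays with high Esm1 the difference was -1.15 (adjusted p = 0.111). At 12 months Angptl4 in HSLAKO BAT (10.65, 10.88, 11.78 and 11.07) also lay below the controls (12.24, 12.28, 12.73 and 12.13), by -1.25 (SE 0.36, adjusted p = 0.0118), which does not pass. DAKO BAT at 12 months (10.99, 11.45, 11.83 and 11.64) lay below the same controls by -0.87 (SE 0.36, adjusted p = 0.0943). All controls of 7 and 12 months had mesothelial signal. The median of Angptl4 was 12.59 on the 16 arrays with that signal, these controls included, and 11.76 on the 43 arrays high in Ucp1. Tissue source and genotype cannot be told apart here. Of 11 adipocyte genes, 2 were called lower in DAKO at 7 months, 3 in DAKO at 12 months and 9 in HSLAKO at 12 months. Over all genes 0.815%, 3.82% and 4.45% were called there in either direction. The part of the adipocyte genes in the Angptl4 values was not tested. At 3 months Angptl4 was not lower, with DAKO at 11.70, 11.75, 12.19, 12.02 and 11.38 against 11.80, 11.44, 11.49, 11.55 and 11.20 in controls (difference 0.31, SE 0.33, adjusted p = 0.624).

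Among the receptors, Kdr was close to background throughout. It was detected on 36 arrays and ranged from 4.31 to 5.60, so its differences compare dim signals. In DAKO BAT at 12 months it was 4.94, 5.13, 4.76 and 4.95 against 4.47, 4.43, 4.70 and 4.31 in controls, where 3 of the 4 arrays were at background. The difference of 0.47 (SE 0.17, adjusted p = 0.0489) was below the fold minimum.

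Flt1, the decoy receptor, was bright and tended to be lower where Esm1 was high. In control BAT at 3 months it was 11.01, 10.36, 10.51, 10.58 and 10.66, the highest group mean. In DAKO BAT it was 10.09, 9.83, 8.00 and 8.85 at 7 months and 8.54, 8.40, 10.08 and 8.98 at 12 months. In HSLAKO BAT at 12 months it was 7.92, 8.98, 10.39 and 8.57 against 10.01, 10.08, 9.71 and 9.60 in controls. The differences from controls at 12 months were -0.85 (SE 0.44, adjusted p = 0.188) in DAKO and -0.89 (SE 0.44, adjusted p = 0.164) in HSLAKO, with overlapping arrays.

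Tek, the angiopoietin receptor, was steady near 8.5 in most groups and lower on some arrays of the older knockouts. In control BAT at 12 months it was 8.73, 8.68, 8.65 and 8.52. In DAKO BAT at 12 months it was 6.97, 7.14, 8.53 and 7.17, a difference of -1.20 (SE 0.38, adjusted p = 0.026). At 7 months the DAKO arrays read 8.58, 8.56, 6.36 and 6.42 against 8.86, 8.37, 8.17 and 8.13 (difference -0.90, SE 0.38, adjusted p = 0.145). The low Tek arrays were not only those with high Esm1. Without the arrays high in Esm1 the 12 month difference was -1.04 (adjusted p = 0.0397), and liposarcoma replicates 4 and 5 read 7.08 and 7.41 while replicates 1 to 3 read 8.32, 8.34 and 8.38.

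**Figure D2:**
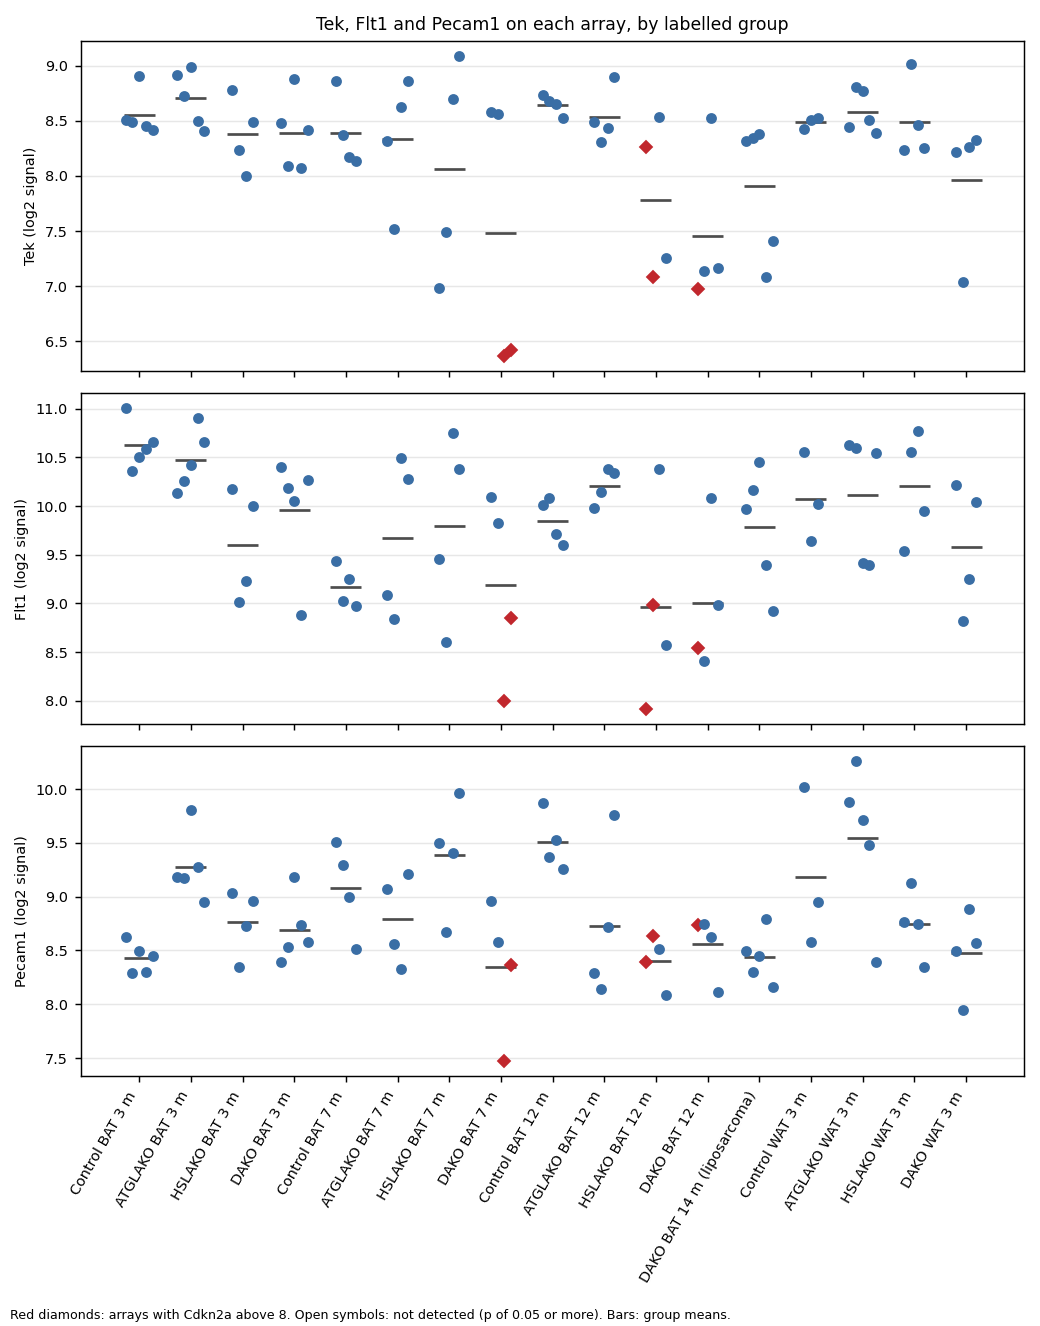
Log2 signal of Tek, Flt1 and Pecam1 on each of the 72 arrays, by labelled group, with bars at group means and red diamonds for the 5 arrays with Cdkn2a above 8. On the diamonds Tek lay between 6.36 and 8.26, Flt1 between 7.92 and 8.98 and Pecam1 between 7.47 and 8.74, with Flt1 at 8.98 or below on all 5.

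The junction genes Pecam1 and Cdh5 read lower than in controls in DAKO and HSLAKO BAT at 12 months, though neither passed both thresholds. All those controls had mesothelial signal. Over the 16 arrays with that signal, these controls included, the median was 9.49 for Pecam1 and 8.08 for Cdh5. On the 43 arrays high in Ucp1 it was 8.63 and 7.51. Tissue source and genotype cannot be told apart in these differences. With arrays brought to a common median, Pecam1 (-1.59, adjusted p = 0.00264), Cdh5 (-1.73, adjusted p = 0.00134) and Tek (-1.82, adjusted p = 0.000505) did pass in DAKO, and Pecam1 (-1.55, adjusted p = 0.00364) in HSLAKO. In the authors' normalized values Cdh5 was -0.53 in DAKO. Pecam1 in control BAT at 12 months was 9.87, 9.37, 9.53 and 9.26. It was 8.74, 8.75, 8.63 and 8.11 in DAKO, a difference of -0.95 (SE 0.31, adjusted p = 0.0267), and 8.40, 8.63, 8.51 and 8.08 in HSLAKO, a difference of -1.10 (SE 0.31, adjusted p = 0.00859). Neither group overlapped the controls, and neither reached the fold minimum. A second Pecam1 probe gave -1.42 (adjusted p = 0.00608) and -1.31 (adjusted p = 0.0101). Without the high-Esm1 arrays the differences of the main probe were -1.01 (adjusted p = 0.03) and -1.21 (adjusted p = 0.0354).

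Cdh5 in control BAT at 12 months was 8.38, 8.04, 8.08 and 7.73. In DAKO it was 7.63, 6.45, 7.54 and 6.14 (difference -1.12, SE 0.36, adjusted p = 0.0268) and in HSLAKO 7.24, 7.37, 7.29 and 6.35 (difference -0.99, SE 0.36, adjusted p = 0.0477). Both lay below every control array. At 3 months neither gene passed the test. Cdh5 in DAKO differed from controls by -0.26 (SE 0.32, adjusted p = 0.689). Pecam1 was 8.63, 8.29, 8.50, 8.30 and 8.45 in controls and 8.39, 8.53, 9.19, 8.74 and 8.58 in DAKO (difference 0.25, SE 0.27, adjusted p = 0.634). In ATGLAKO it was 9.18, 9.18, 9.80, 9.27 and 8.95, above every control array, without passing the test (difference 0.85, SE 0.27, adjusted p = 0.103).

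Over the 13 comparisons 117 tests of the 9 genes were made, and 1 was called. At 3 months in BAT 0 of 9 were called in DAKO, where 0.685% of all genes were called, 0 in ATGLAKO (0.0815%) and 0 in HSLAKO (1.54%), with 2 members each at an unadjusted p under 0.05 in limma (23%, 15.7% and 27.9% of all genes). At 7 months 1 of 9 was called in DAKO (0.815% of all genes), 0 in ATGLAKO (0%) and 0 in HSLAKO (0.921%), with 4, 1 and 1 members at an unadjusted p under 0.05 (23.1%, 11.4% and 23.2% of all genes). At 12 months 0 of 9 were called in DAKO (3.82%), ATGLAKO (0.383%) and HSLAKO (4.45%), with 6, 1 and 7 members at an unadjusted p under 0.05 (31%, 21.7% and 31.8% of all genes). An adjusted p under 0.05 with no fold minimum held at 12 months for 4 of 9 members in DAKO (16.7% of all genes), 3 in HSLAKO (18.7%) and 0 in ATGLAKO (4.13%), at 7 months for 1 in DAKO (7.52%) and 0 in HSLAKO (7.31%) and ATGLAKO (0%), and at 3 months for 0 in DAKO (5.76%), ATGLAKO (1.13%) and HSLAKO (11%). At 12 months the median log2 fold change of the 9 genes was -0.85 in DAKO and -0.86 in HSLAKO, against 0.05 and 0.06 over all genes. Both comparisons share their control arrays. In the liposarcoma against DAKO BAT at 12 months 0 members and 0% of all genes were called, with 0 members and 5.06% of all genes at an unadjusted p under 0.05. In WAT 0 members and 0% of all genes were called in each of DAKO, ATGLAKO and HSLAKO, with 2, 0 and 0 members at an unadjusted p under 0.05 (5.77%, 3.38% and 2.84% of all genes).

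**Figure D3:**
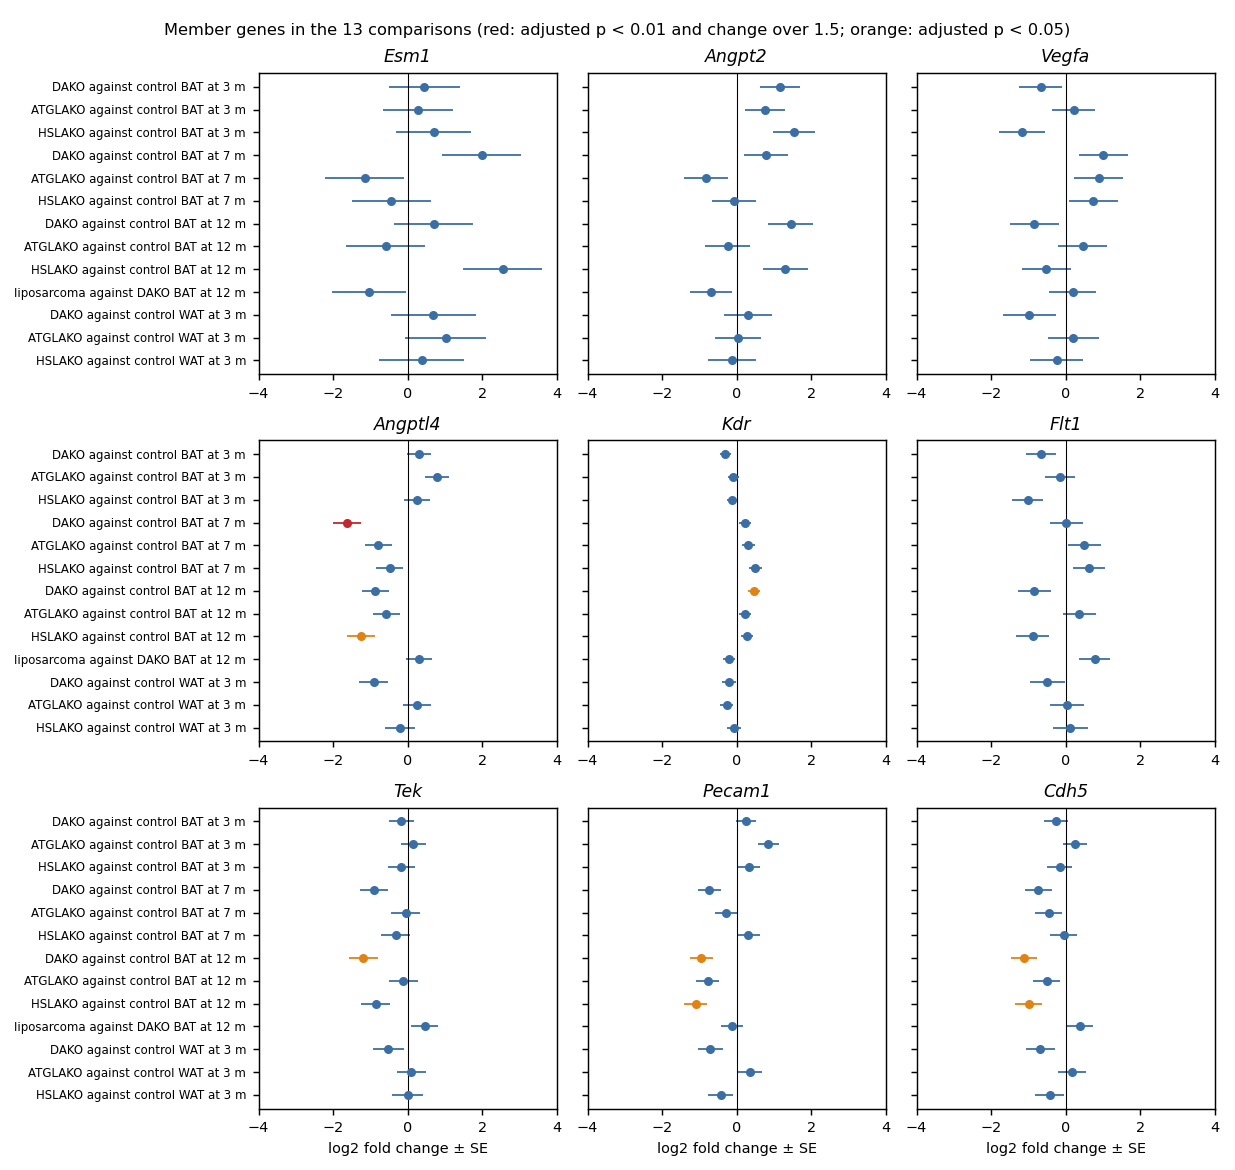
Log2 fold change with its standard error for each of the 9 tested genes (panels) in each of the 13 comparisons (rows), red where called and orange where only the adjusted p was under 0.05. The red point is Angptl4 in DAKO BAT at 7 months (-1.63), and the largest change of Esm1, 2.55 in HSLAKO BAT at 12 months, has a standard error of 1.06.

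The 5 arrays with high Esm1 are also the 5 with Cdkn2a above 8. Cdkn2a encodes cell cycle inhibitors and is silent in most normal tissue. It read 10.64 and 9.43 on HSLAKO BAT replicates 1 and 2 at 12 months, 10.44 and 9.71 on DAKO BAT replicates 3 and 4 at 7 months and 9.30 on DAKO BAT replicate 1 at 12 months. The next highest level, 5.72, was on liposarcoma replicate 4. None of the 5 arrays carried the liposarcoma label, and 2 of them were labelled HSLAKO. The study, in contrast, reports raised Cdkn2a in DAKO liposarcomas alone. Since the arrays were picked by a measured value and not by a label, they were neither averaged nor tested. Each is described by its distance from the gene's own median over the other 67 arrays, which span many groups.

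Esm1 stood 7.17, 6.52, 5.33, 6.66 and 5.79 log2 units above its median on these arrays, in the order just given. On all 5 it exceeded every one of the other 67 arrays, which was so for 537 of 12265 genes (4.38%). Angpt2 stood 1.10, 2.86, 1.68, 4.15 and 3.18 above its median, but 6 other arrays reached above the lowest of the 5. The highest other Angpt2 level was 9.16, on HSLAKO BAT replicate 1 at 7 months, which was also the highest other array for Esm1.

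The stable endothelial genes did not follow. Pecam1 lay at -0.35, -0.11, -1.28, -0.38 and -0.01 and Cdh5 at -0.30, -0.17, -1.35, -0.38 and 0.09. With arrays brought to a common median instead of quantile normalization, 3 of the 5 arrays lay above the median for Pecam1 and 3 for Cdh5, so that their side of the median was not settled. Tek lay at -0.19, -1.36, -2.08, -2.03 and -1.48 (with a common median, 1 of the 5 lay above) and Flt1 at -2.16, -1.10, -2.09, -1.23 and -1.54 under quantile normalization. Angptl4 lay at -1.19, -0.96, -1.95, -0.84 and -0.85. Vegfa was divided, at -1.47, 0.48, -2.07, 0.46 and 0.24, with the DAKO array of 7 months that was lowest in Vegfa (replicate 3) also lowest in Pecam1, Cdh5 and Tek. Kdr stayed within 0.24 of its median on all 5, near background.

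**Figure D4:**
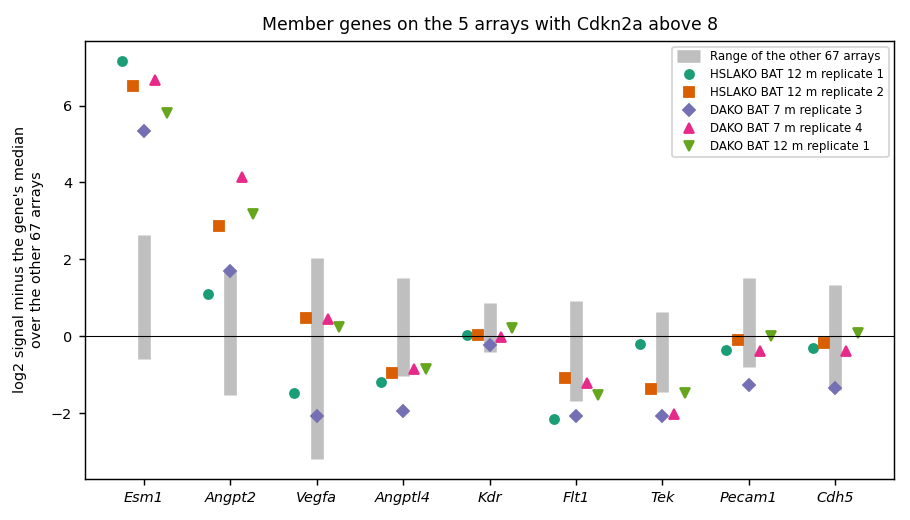
Log2 signal of the 9 genes on each of the 5 arrays with Cdkn2a above 8 (symbols), minus the gene's median over the other 67 arrays, with grey bars for the range of those 67. Esm1 lay 5.33 to 7.17 above its median and clear of the grey bar, while Flt1 lay between -2.16 and -1.10.

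Wider lists gave the same contrast by count. Of 18 tip-cell genes measured, 11 to 17 lay above their median on each of the 5 arrays (61.1% to 94.4%), and the list's median deviation ran from 0.42 to 1.21. Of 18 stable endothelial markers 1 to 6 lay above (5.56% to 33.3%), with median deviations of -1.39 to -0.33. Over all genes 51.9% to 53.8% lay above, with medians of 0.02 to 0.04. Among the tip-cell genes Igfbp3, which binds insulin-like growth factors, stood 1.31 to 3.99 above its median, and Pgf, a placental relative of VEGF-A, read 4.85 to 7.08 where its median over the other arrays was at background. The tip-cell list, which includes Esm1 itself, was not uniform. Pdgfb lay below its median on all 5 arrays (-0.98 to -0.09), and Dll4 was split (-0.35 to 0.54). Esm1 was the only tip-cell gene with all 5 arrays beyond the range of the others. Among the stable markers Ptprb, the phosphatase that restrains Tek, had deviations of -2.38 to -1.31, and Nos3, the endothelial nitric oxide synthase, of -2.49 to -1.28. Cd93 went the other way on all 5 arrays, at 0.42 to 1.04 above. Vwf lay above its median on 4 of the 5 arrays (-1.39 to 1.37) and Emcn on 3 (-0.98 to 0.46).

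Ligands and hypoxia genes split within their lists. Of 12 ligands 5 to 7 lay above their median. Vegfc, which drives lymphatic growth, stood 1.26 to 2.89 above, whereas the deviations were -2.93 to -1.49 for Vegfb and -3.03 to -2.61 for Fgf1. Fgf1 was lower than on every other array, which was so for 276 of 12265 genes (2.25%). Of 17 hypoxia-responsive genes 7 to 12 lay above. Slc2a1, the glucose transporter, stood 1.65 to 3.62 above and P4ha1, a collagen hydroxylase, 0.73 to 1.80 above, but the deviations were -2.79 to -0.35 for Hk2, a hexokinase, and -1.77 to -0.55 for Egln1, an oxygen sensor. Of 12 Notch and stalk genes 3 to 9 lay above and of 10 receptors 2 to 5. Of 12 mural cell genes 3 or 4 lay above, with Myh11, the smooth muscle myosin, at -2.64 to -2.14 and under every other array, and Acta2, smooth muscle actin, 0.55 to 2.10 above.

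**Figure D5:**
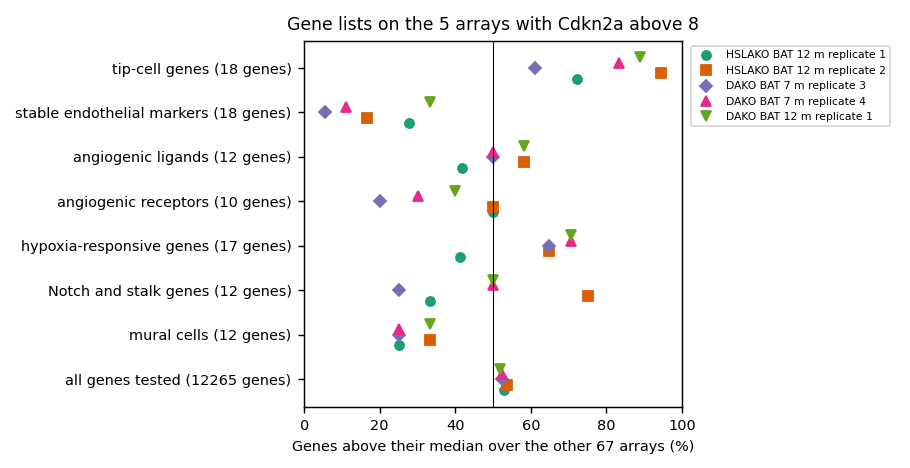
Share of the genes of each list that lay above their own median over the other 67 arrays, for each of the 5 arrays with Cdkn2a above 8 (symbols). Tip-cell genes lay at 61.1% to 94.4% and stable endothelial markers at 5.56% to 33.3%, with all genes at 51.9% to 53.8%.

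Other cell types differed on these arrays as well. Of 11 adipocyte genes 0 lay above their median on any of the 5 arrays, with median deviations of -5.19 to -3.61, and 7 of the 11 were below every other array. Over all genes 2.25% were below and 4.38% above every other array. Ucp1 read 4.26 to 4.81. Of 12 skeletal muscle genes 0 lay above (median deviations -6.15 to -3.32). Of 11 macrophage genes 10 lay above on each array (median deviations 1.12 to 1.80). Of 6 lymphatic endothelial genes, 6, 2, 1, 3 and 6 lay above on the 5 arrays (median deviations 1.45, -0.50, -0.75, -0.03 and 1.56). Pdpn, which is also made by other cells, lay above every other array, Ccl21a ran from -2.18 to 3.12, and Prox1 and Flt4 were near background and say nothing of this cell type. The part of these cell types in the endothelial values was not tested. The study named Esm1 with Tnc, Ptn and Tnfrsf12a as angiogenesis genes from these samples, so they are not an independent list: all 4 lay above every other array, Tnc by 4.60 to 6.25, Ptn by 5.14 to 6.84 and Tnfrsf12a by 2.62 to 3.24 over their medians. In the labelled liposarcoma comparison 0 of these 4 were higher (median -1.10).

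A further 8 arrays had low Ucp1 with neither mesothelial signal nor Cdkn2a above 8. On these, several stable markers were low without very high Esm1. Esm1 read 5.09 to 7.56, above its median on the 67 arrays but below all 5 arrays with Cdkn2a, and Angpt2 read 8.27 to 9.16. Tek read 6.99 to 7.49 and Flt1 8.40 to 9.46, both toward the low end of their ranges. Cdh5 read 6.14 to 7.58, with a median of 6.53, and 6.19 to 7.63 on the 5 arrays, with a median of 7.24. Nos3 (median deviation -2.09), Ptprb (-1.35), Egfl7 (-1.38) and Tie1 (-1.15) were low as well, and of the tip-cell genes Cxcr4 (1.56) and Plaur (1.22) were high. Other stable markers did not share this. Pecam1 (-0.33, levels 7.95 to 9.49), Esam (-0.29) and Eng (-0.23) were little lower, Vwf was at 0.05, and Cd93 was higher (1.08). Low levels of several stable markers were thus not particular to the arrays with very high Esm1. The level of 8 for Ucp1 was set after the values were seen.

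In the labelled comparisons the lists were counted in the same way. Of the 18 tip-cell genes 15 were higher in DAKO BAT at 3 months than in controls (median 0.39, against 44.9% of all genes higher), but 0 were called. In ATGLAKO 15 were higher (median 0.36) and in HSLAKO 13 (median 0.82), against 46.8% and 46.7% of all genes, with 0 called. At 12 months 10 of 18 were higher in DAKO (median 0.06), and the 1 called gene, Mcam, was lower, by -2.75 (adjusted p = 0.000149). Mcam, an adhesion molecule of endothelium and pericytes, was also lower in HSLAKO at 12 months (-2.35, adjusted p = 0.000594) and in DAKO at 7 months (-2.17, adjusted p = 0.00543). Of the 18 stable endothelial markers 17 were lower in DAKO at 12 months (median -1.09) and 16 in HSLAKO (median -0.93), where 54.7% and 56.1% of all genes were higher. ATGLAKO at 12 months had 15 lower (median -0.27), where 50.1% of all genes were higher. At 7 months 17 were lower in DAKO, 16 in ATGLAKO and 14 in HSLAKO, where 52.6%, 48.4% and 52.9% of all genes were higher. In DAKO and in HSLAKO at 12 months 2 of 18 were called, both lower, where 3.82% and 4.45% of all genes were called in either direction. Robo4, a receptor that steadies vessels, changed by -1.76 (adjusted p = 0.00065) and -1.64 (adjusted p = 0.0011), and Mmrn2, an endothelial matrix protein, by -1.83 (adjusted p = 0.000733) and -1.75 (adjusted p = 0.00095). The call of Mcam at 7 months was lost when any 1 of control replicates 1 to 3 or of DAKO replicates 3 and 4 was left out (-2.32 to -1.94, adjusted p from 0.0107 to 0.0366), and that of Robo4 in HSLAKO without replicate 4 (-1.46). Both calls of Robo4 and Mmrn2 in HSLAKO were lost without the 2 arrays with Cdkn2a above 8 (-1.62, adjusted p = 0.0199 for Robo4 and -1.58, adjusted p = 0.0231 for Mmrn2), with folds about as large as before, and in the authors' normalized values by the fold minimum (-1.43 and -1.34). In DAKO at 12 months both calls held without that group's array (-1.80 and -1.77), and both were lost when the fit held only the compared pair of groups (adjusted p = 0.0123 for Robo4 and 0.0188 for Mmrn2), as was Mmrn2 in the authors' normalized values (-1.38).

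Other called vascular genes were few. Cd93 rose in HSLAKO BAT at 3 months, by 1.55 (adjusted p = 0.00285), where 11 of 11 macrophage genes (median 3.06, 5 called) and 12 of 12 skeletal muscle genes (median 1.89, 0 called) were higher too, whose part was not tested. Over all genes 1.54% were called there in either direction. The call of Cd93 was lost by the fold threshold in the authors' normalized values, without background correction (1.18), with normexp (1.33) and with array weights (1.38). Vegfd, a lymphatic growth factor, was lower by -2.76 in HSLAKO at 7 months (adjusted p = 0.00201) and by -2.06 in DAKO at 12 months (adjusted p = 0.00912). Ccl21a, a chemokine of lymphatic endothelium, was lower by -5.86 in HSLAKO (adjusted p = 0.000792) and by -4.81 in DAKO at 7 months (adjusted p = 0.00575). Fgf1 was lower by -2.25 in HSLAKO at 12 months (adjusted p = 0.00667), which became -1.10 (adjusted p = 0.316) without the arrays with Cdkn2a above 8. Myh11 was lower by -3.44 in HSLAKO at 12 months (adjusted p = 0.000307), by -2.90 in DAKO at 12 months (adjusted p = 0.00215) and by -2.84 in DAKO at 7 months (adjusted p = 0.00808). In the authors' normalized values Myh11 was -1.74, -1.63 and -1.37 in the same order, the last no longer called (adjusted p = 0.054), and without the arrays with Cdkn2a above 8 the calls in HSLAKO at 12 months (-2.36, adjusted p = 0.0472) and DAKO at 7 months (-1.67, adjusted p = 0.188) were lost. Leaving out single arrays ended several of these calls. In DAKO at 7 months, Ccl21a and Myh11 were lost when any 1 of the same 5 arrays was left out (adjusted p from 0.0109 to 0.0557). Myh11 in DAKO at 12 months was lost without replicate 1 of either group, and Vegfd there when any 1 array other than DAKO replicate 1 was left out. Vegfd in HSLAKO at 7 months was lost without control replicate 2 or HSLAKO replicate 1 or 4, and Fgf1 without replicate 1 or 4 of the controls or 1 or 2 of HSLAKO. Cd93 was lost without control replicate 1 or HSLAKO replicate 2 or 3. Mesothelial genes were lower in all of these 7 and 12 month comparisons (Upk3b by -4.68 to -5.31), and their part was not tested. Against DAKO BAT at 12 months the liposarcoma had 14 of 18 tip-cell genes lower (median -0.36) and 15 of 18 stable markers higher (median 0.35), with 0 called and 48.6% of all genes higher. In the same comparison 10 of 11 adipocyte, 8 of 8 brown adipocyte and 12 of 12 skeletal muscle genes were higher and 11 of 11 macrophage genes lower, and their part was not tested.

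Over all 72 arrays the genes whose levels most resembled Esm1 were Ror2 (r = 0.925), Arsj (0.924), Sdc2 (0.921), Cdkn2a (0.914) and Plk4 (0.912). Much of this came from the 5 arrays, since over the other 67 the values of r were 0.634, 0.57, 0.685, 0.526 and 0.655. Angpt2 had r = 0.787 with Esm1, Flt1 -0.664, Tek -0.641, Cdh5 -0.218 and Pecam1 -0.145. Pecam1 was most like Esam (r = 0.865), Garre1 (0.814), Cdh5 (0.804), Jup (0.793) and Robo4 (0.789), and over the 67 arrays these held at 0.768 to 0.847. Angptl4 was most like Cldn15 (r = 0.766), Pde2a (0.722), Robo4 (0.718), Esam (0.713) and Dido1 (0.71). The arrays share groups and tissue make-up, so these values describe likeness and carry no test.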

How the data were processed

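The study hybridised adipose RNA to 72 arrays (Illumina MouseRef-8 v2.0), in 17 labelled groups of 3 to 5. The authors deposited the bead signal of each probe as a linear intensity, with no normalization between arrays, exported from BeadStudio. The deposited detection p-value sets each signal against control beads that should bind nothing. A further deposited table holds the authors' normalized intensities, used only as an alternative. The functions behind it are not given in the sources used here.

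The neqc function of limma 3.58.1 (R 4.3.3) corrected the raw signals for background and normalized them by quantiles. Tested were 18083 of 25697 probes, those detected (p under 0.05) on 3 arrays or more, and each of 12265 genes was represented by its brightest tested probe. Symbols came from the platform annotation, updated through Entrez Gene (23978 probes with 1 symbol, 1719 with none). All groups entered 1 linear model (limma's moderated test, 55 residual degrees of freedom, Benjamini-Hochberg over all tested probes), and a gene was called at an adjusted p under 0.01 with a log2 fold change over 1.5 in size. Median raw signals ran from 94.7 to 161 and 44.8% to 54.8% of probes were detected per array. Precision is limited by how many arrays there are. Replicates within a group are separate samples per the labels. The p-values use 1 spread per probe, pooled over the replicates of all 17 groups. Groups with a wide spread thus enlarge the error of every comparison. For Esm1 the SD was 3.82 in HSLAKO BAT at 12 months and 0.12 in control BAT at 3 months. In HSLAKO and DAKO at 3 months the sample names repeat the same numbers for BAT and WAT, which points to shared mice. The model treated these arrays as independent. Replicate numbers do not follow those names across the tissues, so a block by replicate number does not account for shared mice. The pipeline was tested on simulated data.

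The 10 genes, the gene lists and the level of 8 for Cdkn2a were chosen with earlier results of these data known. Named were the 10 genes, called list members (at most 4 per list and comparison), and the 5 genes most like Esm1, Pecam1 and Angptl4, with Cdkn2a, Pnpla2, Lipe and Ucp1 as checks. List genes given for the 5 arrays with Cdkn2a above 8 were chosen after their values were seen. Replicate numbers were checked for pairing: deviations of same-numbered arrays correlated over 0.1 in every pair only for HSLAKO against control WAT (0.132 to 0.594 over 3 pairs), and with the block 0 genes of the 9 were called there, as without it. The other settings tried are in the closing section.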

Additional observations from a re-analysis of the deposited data

Results flagged for a closer look

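Of 144 groups of 4 or 5 arrays examined over the 9 genes, 10 held 1 array whose gap to the nearest other exceeded the critical share of the group's range (Dixon's test at 95%). Chance flags about 1 in 20 groups. Vegfa read 11.06 on control BAT replicate 3 at 12 months (others 9.33 to 9.46, gap share 0.929), 8.90 on DAKO BAT replicate 4 at 3 months (others 9.77 to 10.10, 0.729) and 7.83 on DAKO BAT replicate 3 at 7 months (others 10.06 to 10.36, 0.882). Tek read 8.91 on control BAT replicate 3 at 3 months (others 8.42 to 8.50, 0.821), 8.53 on DAKO BAT replicate 3 at 12 months (others 6.97 to 7.17, 0.873) and 7.04 on DAKO WAT replicate 2 (others 8.21 to 8.33, 0.913). Flt1 read 8.88 on DAKO BAT replicate 4 at 3 months (others 10.05 to 10.40, 0.77), the array that was also low in Vegfa. Cdh5 read 7.18 on ATGLAKO BAT replicate 5 at 3 months (others 7.97 to 8.21, 0.765) and 6.35 on HSLAKO BAT replicate 4 at 12 months (others 7.24 to 7.37, 0.866). Esm1 read 4.61 on control BAT replicate 5 at 3 months (others 4.32 to 4.38, 0.777), not well above background.

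The difference from control BAT changed with age in 5 of 81 tests (9 genes, 3 genotypes, 3 pairs of ages) at an adjusted p under 0.05 in the same limma model. The share of all genes passing the same tests was not counted, so 5 of 81 cannot be read as particular to these genes. Of 27 tests of BAT against WAT at 3 months, 0 passed. Those 27 tests took BAT and WAT as independent, although sample names point to shared mice in HSLAKO and DAKO. Angptl4 changed by -1.94 in DAKO from 3 to 7 months and by -1.51 in HSLAKO from 3 to 12 months. Pecam1 changed by -1.63 in ATGLAKO and by -1.44 in HSLAKO, both from 3 to 12 months. Kdr changed by 0.774 in DAKO from 3 to 12 months, between signals near background. All control BAT arrays of 7 and 12 months carried mesothelial signal and none of 3 months did, so age and tissue source cannot be told apart in these differences.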

How the results depend on the processing

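For 45 results, 13 counts of called genes and 32 fold changes, 16 other settings were tried beside leaving out each array, and 27 fold changes never changed sign. The settings without arrays chosen by Cdkn2a or Ucp1 were chosen after seeing the data.

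The call of 1 gene in DAKO BAT at 7 months became 0 when the fit held only both groups compared, with array weights and without the arrays with Cdkn2a above 8, and ranged from 0 to 1 on leaving out single arrays. In DAKO BAT at 12 months 0 calls became 3 with a common median (Pecam1, Cdh5 and Tek), 2 with array weights (Angpt2 1.58 and Cdh5 -1.71) and 4 at an adjusted p under 0.05 with no fold minimum, and 0 to 1 on leaving out single arrays (1 without DAKO replicate 3, where Tek read -1.55). In HSLAKO BAT at 12 months 0 became 2 with a common median (Pecam1 -1.55 and Angptl4 -1.54), 2 with array weights (Esm1 4.20 and Angpt2 1.91), 1 at an adjusted p under 0.01 and 3 under 0.05 with no fold minimum, and 0 to 1 on leaving out single arrays (1 without HSLAKO replicate 3, Esm1 at 3.93). In HSLAKO BAT at 3 months 0 became 1 when the fit held only both groups compared (Angpt2, the only member there with a change over 1.5). The cause was not tested. Array weights did not fully converge.

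Without the arrays with Cdkn2a above 8, Esm1 turned to -0.94 in DAKO at 7 months, -0.65 in DAKO and -0.69 in HSLAKO at 12 months and 0.30 in the liposarcoma (0.29 without its arrays with high Ucp1), and Angpt2 in DAKO at 7 months turned to -0.71 (-0.035 with array weights). On leaving out single arrays Esm1 kept its direction in DAKO at 7 months (0.79 to 3.02, lowest without DAKO replicate 4) and in HSLAKO at 12 months (1.36 to 3.93, lowest without HSLAKO replicate 1). It ranged from -0.65 to 1.41 in DAKO at 12 months and from -1.76 to 0.30 in the liposarcoma, both turned by DAKO replicate 1, and Angpt2 in DAKO at 7 months from -0.13 (without DAKO replicate 4) to 1.28.

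With the replicate number as a block no count of called genes changed (Angptl4 in DAKO at 7 months -1.63, adjusted p = 0.00515, and Esm1 in the liposarcoma -1.08, adjusted p = 0.88). In the authors' normalized values the calls of Vegfd (-1.18 in HSLAKO at 7 months, and in DAKO at 12 months) and Fgf1 (-0.98 in HSLAKO at 12 months) were lost, and Ccl21a at 7 months was -2.97 in DAKO and -3.21 in HSLAKO. Leaving out arrays with mesothelial signal gave no value at 7 and 12 months, where no control array was left. Signals near background limit Esm1, Kdr and Apln.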
